A study of Rattus norvegicus with 12 samples.

Results

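The potassium channel genes of the rat, taken as every gene symbol that begins with Kcn, were followed through 12 poly(A) RNA-seq libraries of PAC1 cells, a smooth muscle cell line from rat pulmonary artery. The table of counts per gene held 94 such symbols among 33294 genes. Of these, 35 had a mean of at least 50 counts in at least 1 group, and 34 of these are described gene by gene. The values just inside that limit were 67 for Kcnj9, 57 for Kcna4 and 55 for Kcnk4, and those just outside were 47.3 for Kcnj10, 41.7 for Kcnj13 and 38.7 for Kcnf1 (highest group mean count).

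The libraries formed 4 groups of 3. D1 cells were differentiated PAC1 cells (PAC1-D, split weekly at 1:10) given a control siRNA, and P cells were the more proliferative state of the line (PAC1-P, split at 1:20 and 2 times a week), also given a control siRNA. RBPMS KD1 and MBNL KD cells were PAC1-D cells given siRNA against the splicing regulator Rbpms, or against Mbnl1 and Mbnl2 together. Every group therefore carried siRNA, 90 pmol given again after 24 h, with harvest 48 h after the second dose according to the labels, while the study's methods give other times. All groups came from a single cell line, and the knockdowns lowered but did not remove their targets.

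Potassium channels let potassium leave the cell and so hold the membrane at a negative voltage, which in vascular smooth muscle limits calcium entry and contraction. The family is built from voltage-gated pore (alpha) subunits, auxiliary subunits that shape them, inward rectifiers, two-pore-domain leak channels, and channels opened by calcium or sodium. Some alpha subunits, called silent, form no channel alone and modify other voltage-gated channels by joining them. Loss of the contractile state in smooth muscle is known to go with a change in the set of calcium-activated channels.

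Total counts lay between 86972422 and 90771289 in 11 libraries, and MBNL KD replicate 3 held 80842635. That library differed from the others of its group by a chi-square of 12.8 per gene, beside 3.68 to 7.70 for the other pairs within groups. The targeted genes followed the labels: Rbpms stood at 25.0% of D1 in RBPMS KD1 cells, and Mbnl1 and Mbnl2 stood at 23.7% and 29.5% of D1 in MBNL KD cells. Rbpms was also low in P cells, at 6.30% of D1. The summed scaled count of 8 smooth muscle markers was 871742 to 916188 in D1, 18688 to 19856 in P, 694097 to 704524 in MBNL KD and 434073 to 449797 in RBPMS KD1, and all 8 were called lower in P. In MBNL KD 6 of the 8 passed the test downward, while Myh11 (144% of D1) and Cnn1 (108% of D1) passed upward. Scaled counts here are counts divided by the library's effective size and brought to a common size. In bulk libraries such as these, fewer cells of a type and less RNA per cell cannot be told apart.

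Calls of change required a log2 fold change beyond 1 together with an adjusted p under 0.05 from edgeR (quasi-likelihood F, Benjamini-Hochberg across every gene tested), the source of every adjusted p below. In P against D1 cells, 23 of the 43 Kcn genes tested were called, 17 higher and 6 lower, where 27.6% of all genes tested were called, 16.4% as higher and 11.2% as lower. After quantile normalization the split was 14 higher and 11 lower. Under that scaling Kcnd1 (-1.28), Kcnip3 (-1.03), Kcnj14 (-1.28) and Kcnt2 (-1.18) were also called lower, and Kcna4, Kcnh7, Kcnj9, Kcnn1, Kcnq1 and Kcnv2, which did not pass the test in P otherwise, passed the adjusted p threshold with values from -0.99 (Kcnj9) to -0.52 (Kcnn1). Several members passed the filter on low counts only through their level in P, so the share among those tested describes them and no more. In RBPMS KD1 against D1, 2 of 35 were called, beside 4.68% of all genes. These were Kcnj2, as higher (3.06% of all genes), and Kcnmb1, as lower (1.62%). In MBNL KD against D1, 9 of 36 were called, beside 10.2% of all genes, with 6 higher (6.10% of all genes) and 3 lower (4.14%), or 5 higher and 4 lower after quantile normalization. Among the genes called higher there, Kcnj4 and Kcnk12 passed the filter on low counts only in comparisons with MBNL KD (main fits). That share, too, describes the members tested and no more. The 3 comparisons share the D1 libraries.

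By the adjusted p alone, 32 of 43 members passed in P, 20 higher and 12 lower, beside 77.9% of all genes tested (40.4% higher and 37.6% lower). In RBPMS KD1, 9 of 35 passed, 4 higher and 5 lower, beside 59.1% (29.5% in either direction). In MBNL KD, 20 of 36 passed, 13 higher and 7 lower, beside 67.5% (33.8% and 33.7%). The members had fewer counts than most genes: the median scaled count in the P and D1 fit was 114 over the members tested and 1386 over all genes tested, and the part of this in the shares was not tested. The median log2 fold change over the members tested was 0.30 in P, -0.08 in RBPMS KD1 and 0.33 in MBNL KD, beside 0.02, 0.0043 and 0.0099 over all genes tested. Members tested only through a group where they were high are in these medians.

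**Figure D1:**
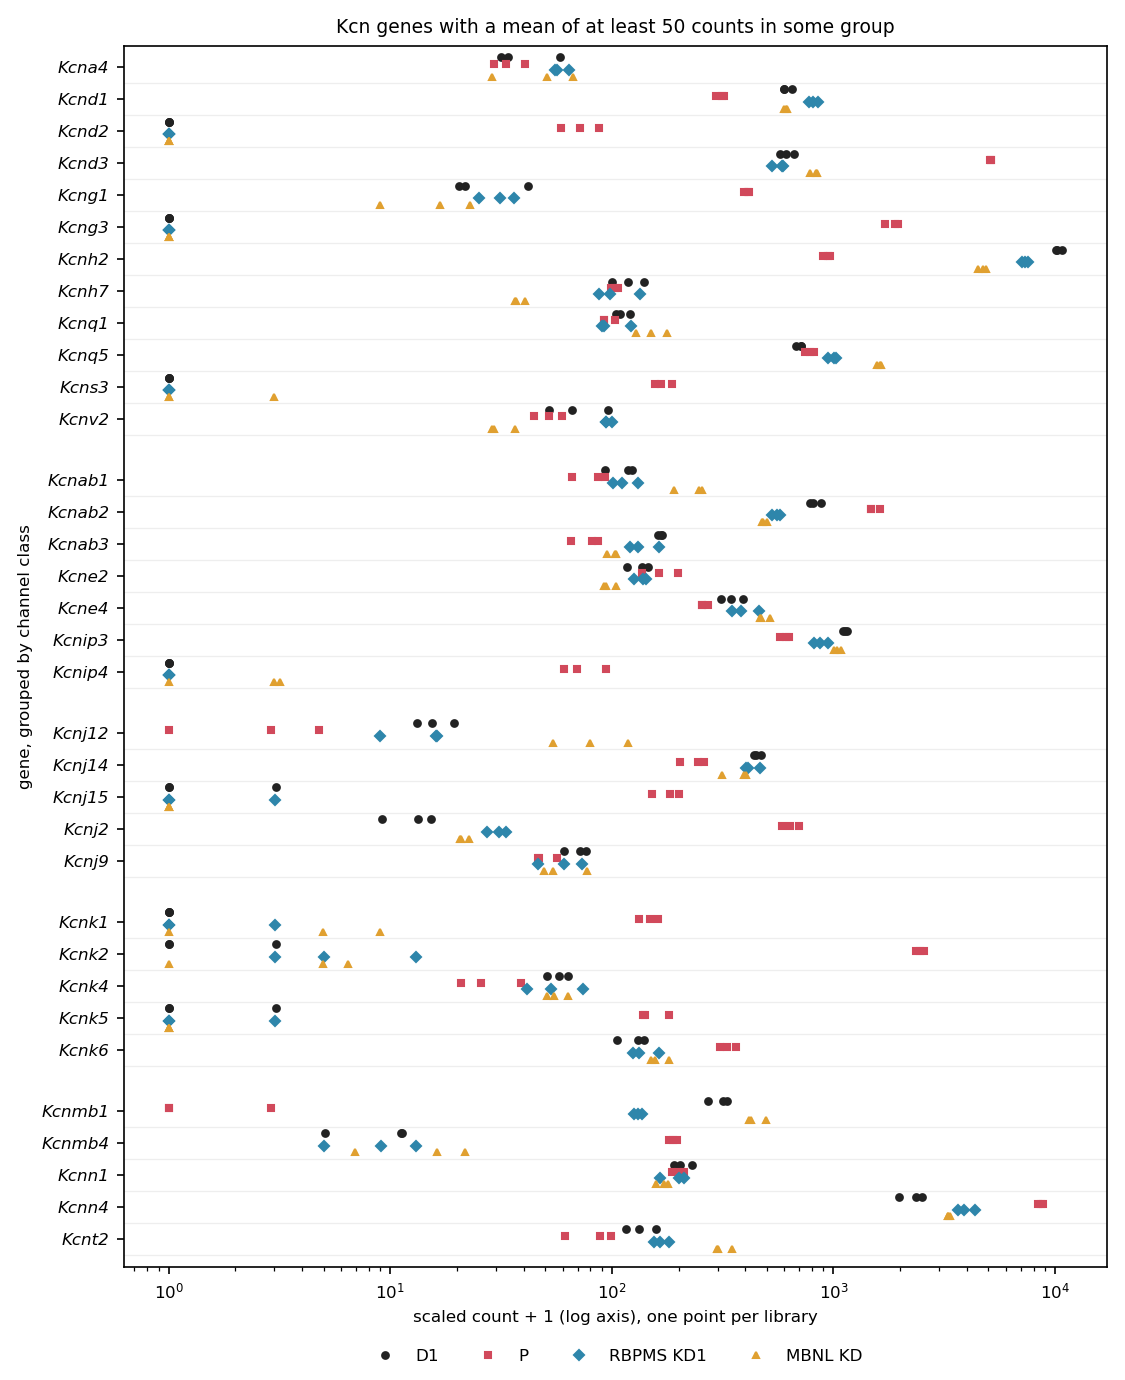
Scaled count plus 1 on a log axis, 1 point per library, for 34 Kcn genes with a mean of at least 50 counts in some group, ordered by class, with a colour and marker for each group. The P points lie apart from the other 3 groups for genes such as Kcng3, with 0 counts in all 9 libraries outside P, while the 4 groups lie together for Kcnn1.

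The promoters of 4 genes that differed strongly between D1 and P in either direction, with that of Kcnd3, are shown to give the sequence context of the genes that were at or near 0 in one state. Each is the stretch of 250 bases before the annotated start in RefSeq, assembly GRCr8, from 5′ to 3′, with CpG dinucleotides in capitals. This assembly is not the one the reads were aligned to (mRatBN7.2). The genes were chosen for display after their values were seen. The stretches lie at chr6:16803592-16803841 (Kcng3), chr2:195626066-195626315 (Kcnd3), chr15:4171375-4171624 (Kcnk5), chr11:48070700-48070949 (Kcnj15) and chr10:19061849-19062098 (Kcnmb1), all on the plus strand.
Kcng3: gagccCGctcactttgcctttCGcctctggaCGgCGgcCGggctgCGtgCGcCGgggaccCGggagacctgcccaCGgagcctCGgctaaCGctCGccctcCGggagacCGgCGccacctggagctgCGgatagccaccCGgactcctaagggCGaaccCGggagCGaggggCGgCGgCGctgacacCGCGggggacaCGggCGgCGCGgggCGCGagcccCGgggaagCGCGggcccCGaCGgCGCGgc
Kcnd3: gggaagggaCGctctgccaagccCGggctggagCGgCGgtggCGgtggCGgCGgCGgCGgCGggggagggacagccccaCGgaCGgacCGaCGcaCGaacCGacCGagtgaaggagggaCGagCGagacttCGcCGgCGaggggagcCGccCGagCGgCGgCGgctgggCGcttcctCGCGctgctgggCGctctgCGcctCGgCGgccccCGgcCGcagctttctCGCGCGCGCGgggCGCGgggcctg
Kcnk5: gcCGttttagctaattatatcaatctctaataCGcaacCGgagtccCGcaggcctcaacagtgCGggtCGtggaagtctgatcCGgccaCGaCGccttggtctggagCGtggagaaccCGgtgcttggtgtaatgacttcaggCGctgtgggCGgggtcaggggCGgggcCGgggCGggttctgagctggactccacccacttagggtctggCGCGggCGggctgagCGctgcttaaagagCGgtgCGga
Kcnj15: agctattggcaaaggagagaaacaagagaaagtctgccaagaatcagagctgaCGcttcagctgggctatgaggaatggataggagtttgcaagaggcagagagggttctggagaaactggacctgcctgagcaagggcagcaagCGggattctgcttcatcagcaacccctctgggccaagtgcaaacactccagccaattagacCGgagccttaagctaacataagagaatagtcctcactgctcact
Kcnmb1: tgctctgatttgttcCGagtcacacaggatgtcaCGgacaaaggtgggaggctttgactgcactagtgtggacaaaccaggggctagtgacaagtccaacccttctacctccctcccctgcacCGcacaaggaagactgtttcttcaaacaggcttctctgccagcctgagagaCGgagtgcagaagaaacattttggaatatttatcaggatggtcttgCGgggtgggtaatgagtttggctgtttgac

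The motif searched was CG, which reads the same on both strands. The Kcng3 promoter held 39 CpG and the Kcnd3 promoter 43, counts that 1.43% and 0.663% of the 33469 RefSeq promoters reached, and the Kcnk5 promoter held 22, which 13.7% reached. The Kcnj15 promoter held 3 and the Kcnmb1 promoter 5, where the median promoter held 5 and 92.2% held at least 1. Genes with at most 2 counts in any D1 library and well counted in P thus included CpG-dense (Kcng3, Kcnk5) and CpG-poor (Kcnj15) promoters. A promoter was matched for 63 of the 94 members and for 23 of the 35 past the 50-count limit.

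Among voltage-gated alpha subunits, 13 of 40 genes reached the 50-count limit. Kcnd2, Kcng1, Kcng3 and Kcns3 did so only through P, and Kcna4 only through RBPMS KD1. Kcnh2, which encodes the hERG pore of the rapid delayed rectifier current, was lower in each of the other groups than in D1. Its counts were 9888, 10446 and 10001 in D1, 1022, 948 and 996 in P, 7444, 7202 and 7105 in RBPMS KD1, and 4891, 4767 and 4096 in MBNL KD. No library of one group overlapped with another group. Kcnh2 fell 11.1-fold in P (log2 fold change -3.47 ± 0.038 SE, edgeR adjusted p = 2.1e-37) and 2.20-fold in MBNL KD (-1.14 ± 0.031, adjusted p = 1.5e-23). In RBPMS KD1 it fell by less than the fold threshold (-0.50 ± 0.030, adjusted p = 2.6e-14).

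Kcnh7, a second member of the erg family, fell in MBNL KD cells. It had 115, 134 and 97 counts in D1, 104, 111 and 108 in P, 86, 96 and 133 in RBPMS KD1, and 40, 36 and 33 in MBNL KD. The MBNL KD libraries lay below all others, and the other 3 groups overlapped. The MBNL KD change was -1.66 ± 0.22 (edgeR adjusted p = 8.8e-08), while P (-0.22 ± 0.18) and RBPMS KD1 (-0.16 ± 0.19) did not pass the test with the main scaling. Kcnh1 stayed under 50 counts, with 0, 2 and 2 counts in D1 and 12, 10 and 18 in P, and was called higher in P (3.09 ± 0.71, adjusted p = 2.3e-04), a call lost after quantile normalization.

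The Kv4 genes Kcnd1, Kcnd2 and Kcnd3 encode pores of fast inactivating A-type currents, and they moved in opposite directions between D1 and P. Kcnd3 had 596, 641 and 562 counts in D1, 5456, 5362 and 5399 in P, 522, 586 and 585 in RBPMS KD1, and 791, 848 and 766 in MBNL KD. It was 8.31-fold higher in P (log2 fold change 3.05 ± 0.047, edgeR adjusted p = 2.2e-33), and rose in MBNL KD by less than the fold threshold (0.42 ± 0.071, adjusted p = 5.4e-06). RBPMS KD1 overlapped with D1.

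Kcnd2 had 92, 61 and 75 counts in P and none in the 9 other libraries, at least 23.4-fold higher in P than a level of 3 counts per library allows in D1. Kcnd1 had 637, 577 and 586 counts in D1, 334, 310 and 337 in P, 838, 800 and 770 in RBPMS KD1, and 616, 625 and 548 in MBNL KD. It fell in P by just under the fold threshold (-0.99 ± 0.085, edgeR adjusted p = 1.8e-12), was called lower in 6 of 15 other settings, and rose in RBPMS KD1 (0.40 ± 0.069, adjusted p = 1.3e-05). In MBNL KD it was within the D1 range apart from the library of lowest depth (-0.0064 ± 0.073).

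Kcng3, a silent subunit, had 1813, 2007 and 2063 counts in P and none in the 9 libraries of the other groups, at least 603-fold higher in P than D1 (edgeR adjusted p = 1.0e-30). Kcns3, another silent subunit, had 166, 196 and 175 counts in P, none in D1 or RBPMS KD1 and 0, 2 and 0 in MBNL KD, at least 55.0-fold higher in P than in D1. Kcng1 had 40, 20 and 19 counts in D1, 434, 437 and 417 in P, 24, 30 and 35 in RBPMS KD1, and 8, 16 and 20 in MBNL KD. It rose in P (3.90 ± 0.18, adjusted p = 6.7e-20, or 2.56 with limma on the authors' normalised values). The knockdown changes of Kcng1 did not pass the test (0.15 ± 0.35 and -0.83 ± 0.42). In MBNL KD, Kcng1 was called lower after quantile normalization (-1.13) and without MBNL KD replicate 3 (-1.17), and the value was -0.41 without D1 replicate 1.

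Kcnv2, a silent subunit known from the retina, fell in MBNL KD cells. It had 64, 92 and 50 counts in D1, 54, 62 and 46 in P, 92, 92 and 99 in RBPMS KD1, and 28, 36 and 26 in MBNL KD. The MBNL KD libraries lay below every other library, with a change of -1.19 ± 0.28 (edgeR adjusted p = 3.8e-04). Without D1 replicate 2 it was no longer called, at -0.93. The Kcnv2 locus overlaps the well-counted gene Pum3, and the strand setting of the counting is not given in the sources used here, so reads of Pum3 cannot be told apart. The same holds for Kcnab1, Kcnab2, Kcnh7, Kcnj9, Kcnk2 and Kcnk6, which each overlap another counted gene.

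Kcnq5, a Kv7 pore gene of vascular smooth muscle, rose in both knockdowns. Its counts were 701, 687 and 664 in D1, 871, 827 and 785 in P, 996, 933 and 1021 in RBPMS KD1, and 1650, 1592 and 1488 in MBNL KD. The groups did not overlap in raw counts. The log2 fold change against D1 was 1.21 ± 0.057 in MBNL KD (edgeR adjusted p = 1.2e-17), past the fold threshold, 0.50 ± 0.063 in RBPMS KD1 (adjusted p = 8.2e-08) and 0.16 ± 0.068 in P (adjusted p = 0.035). The P difference was 0.01 after quantile normalization.

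Kcnq1, a Kv7 pore gene known from the heart, had 101, 116 and 106 counts in D1, 109, 96 and 96 in P, 88, 90 and 121 in RBPMS KD1, and 128, 151 and 161 in MBNL KD. MBNL KD libraries lay above the others (0.45 ± 0.16, edgeR adjusted p = 0.015). Kcna4, the one Kv1 pore gene past 50 counts, had 30, 32 and 56 counts in D1, 42, 30 and 34 in P, 55, 62 and 54 in RBPMS KD1, and 66, 28 and 46 in MBNL KD, and passed no test with the main scaling. The Kv1 genes Kcna3 and Kcna5 were never counted and Kcna2 had at most 4 counts. Kcna7, also Kv1, had 6, 1 and 2 counts in D1 and 12, 25 and 26 in P, a called rise (2.64 ± 0.58, adjusted p = 1.2e-04).

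**Figure D2:**
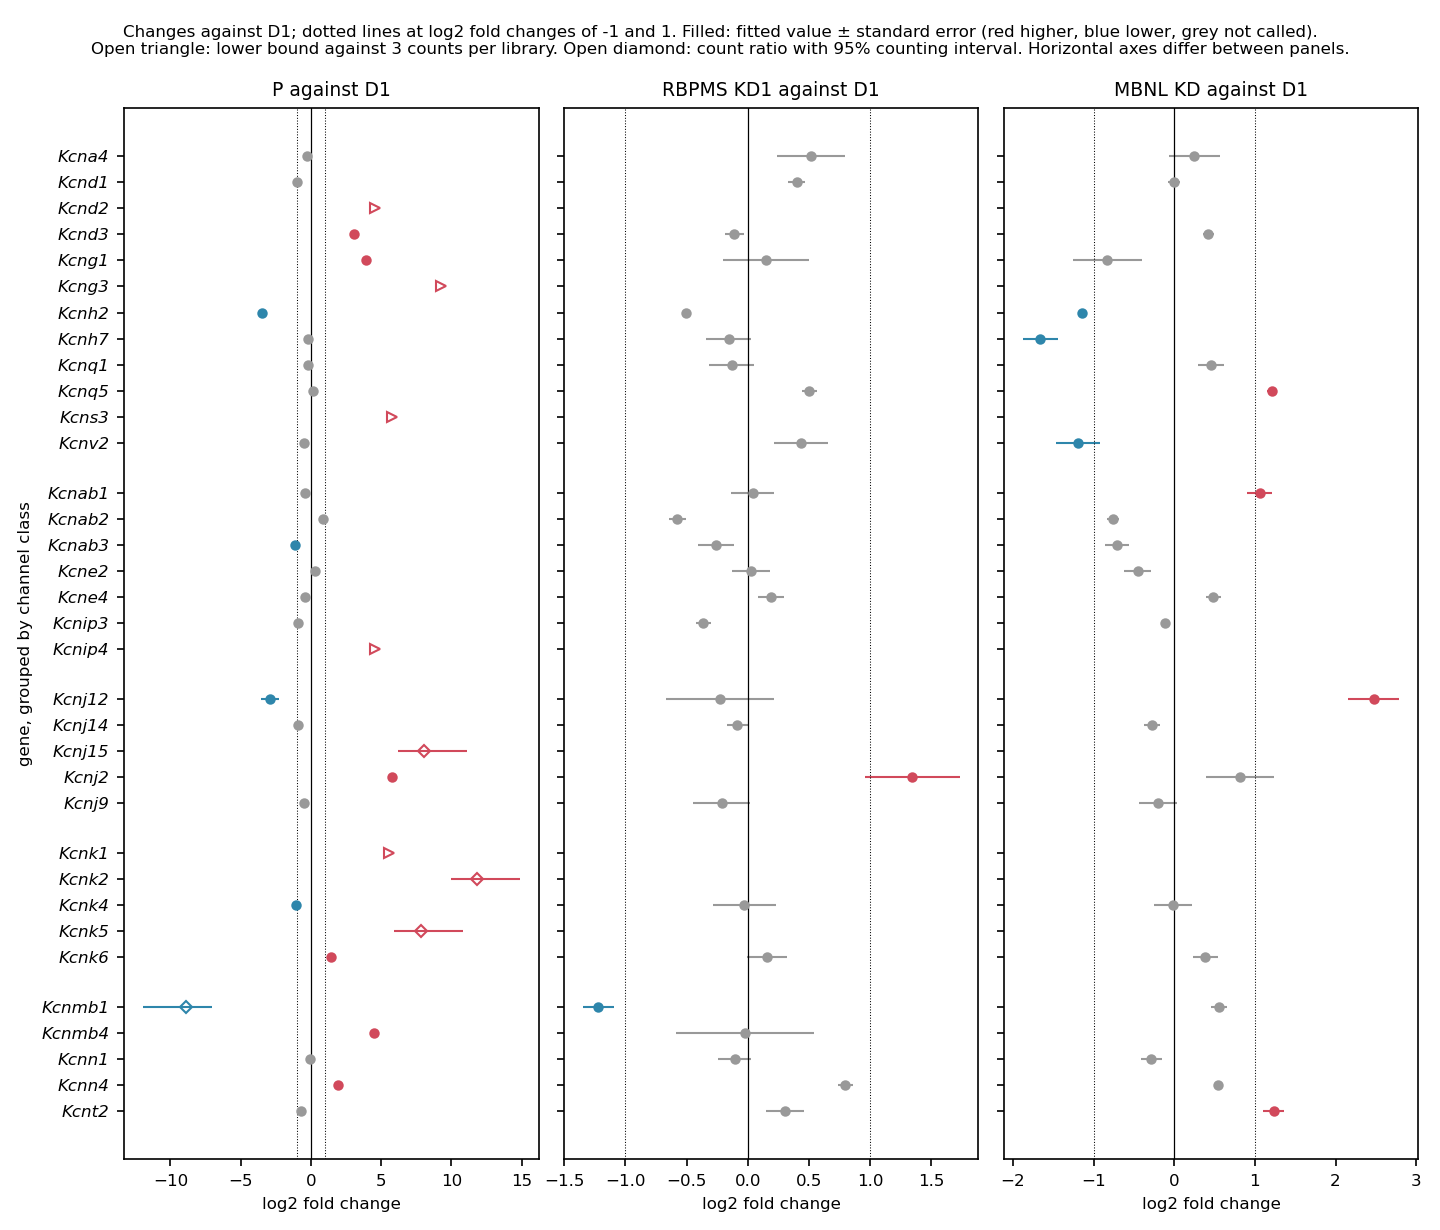
Log2 fold change against D1 in P, RBPMS KD1 and MBNL KD for the same genes, with filled points for fitted values ± SE (red called higher, blue called lower, grey not called), open triangles for lower bounds where D1 had no count, open diamonds for count ratios with a 95% counting interval, no point where a gene was not tested, and a different horizontal scale in each panel. Called points appear in both directions in P and MBNL KD, while in RBPMS KD1 Kcnj2 and Kcnmb1 alone were called.

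Auxiliary and interacting genes reached the limit in 7 of 13 cases, Kcnip4 only through P. The Kvβ genes Kcnab1, Kcnab2 and Kcnab3 encode cytoplasmic subunits of Kv1 channels. Kcnab1 had 120, 89 and 115 counts in D1, 98, 90 and 69 in P, 99, 109 and 130 in RBPMS KD1, and 249, 192 and 232 in MBNL KD. It rose in MBNL KD (1.06 ± 0.15, edgeR adjusted p = 4.7e-07), close to the fold threshold, and was not called without D1 replicate 2, without MBNL KD replicate 3, after quantile normalization (0.88) or with limma on the authors' normalised values (0.73). RBPMS KD1 libraries overlapped with D1, and so did P libraries (-0.45 ± 0.20, adjusted p = 0.037).

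Kcnab2 had 862, 780 and 768 counts in D1, 1722, 1565 and 1554 in P, 522, 563 and 555 in RBPMS KD1, and 483, 506 and 436 in MBNL KD. It passed the adjusted p threshold upward in P (0.89 ± 0.060, edgeR adjusted p = 3.9e-15) and downward in RBPMS KD1 (-0.58 ± 0.071, adjusted p = 5.0e-08) and MBNL KD (-0.76 ± 0.073, adjusted p = 1.9e-10). Kcnab3 had 163, 155 and 163 counts in D1, 85, 68 and 90 in P, 118, 129 and 161 in RBPMS KD1, and 104, 104 and 86 in MBNL KD. It was called lower in P (-1.10 ± 0.17, adjusted p = 7.7e-07), though not without P replicate 2, at -0.99. In MBNL KD it fell by less (-0.71 ± 0.15, adjusted p = 1.5e-04).

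The KChIP genes encode calcium-binding partners of Kv4 channels. Kcnip3 had 1102, 1069 and 1127 counts in D1, 609, 664 and 641 in P, 929, 856 and 817 in RBPMS KD1, and 1046, 1012 and 987 in MBNL KD. It fell in P (-0.90 ± 0.064, edgeR adjusted p = 1.5e-14) and in RBPMS KD1 (-0.36 ± 0.061, adjusted p = 9.5e-06), both within the fold threshold. Kcnip4 had 99, 63 and 72 counts in P, none in D1 or RBPMS KD1 and 0, 2 and 2 in MBNL KD, at least 24.0-fold higher in P than in D1.

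Kcne2 and Kcne4 encode small membrane subunits that change the gating of several Kv channels. Kcne4 had 335, 300 and 382 counts in D1, 269, 286 and 268 in P, 455, 343 and 381 in RBPMS KD1, and 517, 475 and 428 in MBNL KD. It fell in P (-0.42 ± 0.11, edgeR adjusted p = 6.6e-04) and rose in MBNL KD (0.48 ± 0.095, adjusted p = 4.6e-05). Kcne2 had 133, 112 and 141 counts in D1, 209, 172 and 143 in P, 140, 135 and 124 in RBPMS KD1, and 92, 105 and 85 in MBNL KD, and fell in MBNL KD (-0.45 ± 0.17, adjusted p = 0.019).

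The inward rectifiers reached the limit in 5 of 15 cases, but Kcnj2 and Kcnj15 only through P and Kcnj12 only through MBNL KD. Calls against D1 were made for Kcnj2 (P and RBPMS KD1), Kcnj12 (P and MBNL KD), Kcnj15 (P) and Kcnj4 (MBNL KD). The inward rectifiers tested numbered 7 in P, 6 in RBPMS KD1 and 7 in MBNL KD. Of all genes tested, 27.6% (P), 4.68% (RBPMS KD1) and 10.2% (MBNL KD) were called. Kcnj2 (Kir2.1) had 8, 12 and 14 counts in D1, 620, 736 and 672 in P, 26, 32 and 30 in RBPMS KD1, and 20, 22 and 18 in MBNL KD. P was 54.4-fold higher than D1 (5.77 ± 0.17, edgeR adjusted p = 3.9e-25). RBPMS KD1 libraries also lay above D1, 2.53-fold higher (1.34 ± 0.39, adjusted p = 0.0039), from 34 counts in D1 and 88 in RBPMS KD1 over 3 libraries each. With limma on the authors' normalised values it was 0.46 and not called, and the P change was 3.68. The MBNL KD value was 0.81 ± 0.43 (adjusted p = 0.093).

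Kcnj12 (Kir2.2) had 18, 14 and 12 counts in D1, 0, 2 and 4 in P, 15, 15 and 8 in RBPMS KD1, and 118, 80 and 49 in MBNL KD. The MBNL KD libraries were spread more widely than the others but all lay above them, 5.54-fold higher than D1 (2.47 ± 0.32, edgeR adjusted p = 6.7e-08). P was lower than D1 (-2.91 ± 0.65, adjusted p = 1.5e-04), on 6 counts in all, and the value lay between -3.82 (without P replicate 3) and -2.35 (without P replicate 1) when a library was left out. With limma on the authors' normalised values the Kcnj12 value was -0.51 in P, not called, and 1.15 in MBNL KD. Kcnj4 (Kir2.3), below the limit, had 11, 2 and 0 counts in D1 and 17, 20 and 16 in MBNL KD (2.00 ± 0.63, adjusted p = 0.0061), and was not called without D1 replicate 3.

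Kcnj14 (Kir2.4) had 462, 430 and 430 counts in D1, 276, 214 and 256 in P, 462, 395 and 408 in RBPMS KD1, and 398, 406 and 288 in MBNL KD. It fell in P (-0.94 ± 0.10, edgeR adjusted p = 5.9e-10) and, by less, in MBNL KD (-0.28 ± 0.096, adjusted p = 0.012). Kcnj15, of the Kir4 group, had 0, 0 and 2 counts in D1, 212, 160 and 192 in P, 2, 0 and 0 in RBPMS KD1 and none in MBNL KD. It was called higher in P, with a ratio of P to D1 of 260 (95% counting interval 71.7 to 2153). Kcnj9, a Kir3 gene of G protein-gated channels, had 69, 58 and 74 counts in D1, 49, 59 and 48 in P, 45, 59 and 72 in RBPMS KD1, and 77, 49 and 49 in MBNL KD, and passed no test with the main scaling. The pore genes of ATP-sensitive channels, Kcnj8 and Kcnj11, had at most 6 and 5 counts in any library.

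The two-pore-domain class held 5 of 14 genes past the limit. Of these, 4 were called higher in P (16.4% of all genes tested), but Kcnk1, Kcnk2 and Kcnk5 reached the limit only through P. Kcnk2 (TREK-1), a stretch-sensitive leak channel, had 0, 2 and 0 counts in D1, 2510, 2585 and 2697 in P, 12, 2 and 4 in RBPMS KD1, and 4, 0 and 5 in MBNL KD, a P to D1 ratio of 3594 (95% counting interval 995 to 29683). Kcnk5 (TASK-2), a pH-sensitive leak channel, had 0, 0 and 2 counts in D1, 192, 145 and 147 in P, 2, 0 and 0 in RBPMS KD1 and none in MBNL KD, a ratio of 223 (61.5 to 1849). Kcnk1 (TWIK-1) had 157, 139 and 170 counts in P, none in D1, 2, 0 and 0 in RBPMS KD1, and 8, 4 and 0 in MBNL KD, at least 47.8-fold higher in P than in D1. For each of these genes the P libraries lay far above every library of the other groups. The size of the change depended on the scaling for genes at or near 0 in D1: after quantile normalization the log2 fold change was 9.51 for Kcnk2, 5.51 for Kcnj15 and 5.28 for Kcnk5, and with limma on the authors' normalised values it was 6.12, 2.35 and 2.18, all below the intervals of the ratios given. The intervals take each count as a separate fragment and would be wider if both reads of a pair were counted. With limma Kcng3 was at 5.75, Kcns3 at 2.34 and Kcnk1 at 2.17, and all 6 stayed called.

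Kcnk6 (TWIK-2), by contrast, was counted in every group, with 136, 101 and 128 counts in D1, 352, 384 and 323 in P, 122, 160 and 131 in RBPMS KD1, and 157, 182 and 137 in MBNL KD. It rose in P (1.42 ± 0.13, edgeR adjusted p = 8.8e-12), a call lost after quantile normalization and with limma on the authors' normalised values (0.83). In MBNL KD it was slightly higher than in D1 (0.38 ± 0.15, adjusted p = 0.030). The Kcnk6 locus overlaps a second counted gene, LOC103689966. Kcnk4 (TRAAK), a mechanically gated leak channel, had 61, 55 and 49 counts in D1, 21, 26 and 40 in P, 40, 72 and 52 in RBPMS KD1, and 54, 63 and 46 in MBNL KD. Its fall in P (-1.04 ± 0.29, adjusted p = 0.0020) lay at the fold threshold and was not called without D1 replicate 1, P replicate 1 or P replicate 2.

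Kcnk12 (THIK-2), below the limit, had 6, 14 and 12 counts in D1, 0, 4 and 2 in P, 2, 4 and 6 in RBPMS KD1, and 34, 36 and 31 in MBNL KD, and was called higher in MBNL KD (1.65 ± 0.39, edgeR adjusted p = 4.9e-04). Kcnk3 (TASK-1), the leak channel best known from pulmonary artery smooth muscle, had 20, 24 and 6 counts in D1, 4, 0 and 0 in P, 12, 12 and 20 in RBPMS KD1, and 18, 18 and 27 in MBNL KD.

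The calcium- and sodium-activated class reached the limit in 5 of 12 cases, Kcnmb4 only through P. Kcnn4, the intermediate-conductance channel known from proliferating smooth muscle cells, had 2457, 1918 and 2314 counts in D1, 8890, 9323 and 9132 in P, 4285, 3609 and 3888 in RBPMS KD1, and 3379, 3344 and 3005 in MBNL KD. Every library outside D1 lay above every D1 library. P was 3.77-fold higher (1.91 ± 0.047, edgeR adjusted p = 1.6e-27). The rises in RBPMS KD1 (0.80 ± 0.060, adjusted p = 2.7e-12) and MBNL KD (0.54 ± 0.053, adjusted p = 2.2e-10) stayed within the fold threshold.

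Kcnmb1, the smooth muscle β subunit that raises the calcium sensitivity of BK channels, had 310, 261 and 322 counts in D1, 0, 2 and 0 in P, 124, 134 and 130 in RBPMS KD1, and 498, 420 and 389 in MBNL KD. The 4 groups did not overlap. It was 484-fold lower in P than in D1 (95% counting interval 134 to 4003), and -3.38 on the log2 scale with limma on the authors' normalised values. In RBPMS KD1 it was 2.33-fold lower (-1.22 ± 0.13, edgeR adjusted p = 1.9e-09), and in MBNL KD it was higher within the fold threshold (0.55 ± 0.10, adjusted p = 1.8e-05).

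Kcnmb4, the BK β subunit known from neurons, had 10, 10 and 4 counts in D1, 200, 190 and 206 in P, 4, 8 and 12 in RBPMS KD1, and 6, 21 and 14 in MBNL KD, and rose in P (4.50 ± 0.27, edgeR adjusted p = 1.4e-16, or 2.12 with limma on the authors' normalised values). The BK pore gene itself, Kcnma1, had 21, 10 and 11 counts in D1, 4, 2 and 2 in P, 7, 12 and 6 in RBPMS KD1, and 16, 19 and 20 in MBNL KD. Kcnma1 was thus counted at low numbers in every group. It did not pass the filter on low counts in P against D1, and was called lower there when no filter was used.

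Kcnt2, a sodium-activated pore gene, had 129, 153 and 113 counts in D1, 64, 92 and 104 in P, 153, 178 and 164 in RBPMS KD1, and 299, 353 and 276 in MBNL KD. It rose in MBNL KD (1.23 ± 0.13, edgeR adjusted p = 1.3e-09) and fell in P within the fold threshold (-0.72 ± 0.19, adjusted p = 0.0012). Its relative Kcnt1, below the limit, had 17, 10 and 20 counts in D1 and 39, 36 and 34 in P (1.09 ± 0.36, adjusted p = 0.0068), also a call lost after quantile normalization. Kcnn1, a small-conductance channel gene, had 223, 184 and 198 counts in D1, 209, 222 and 196 in P, 209, 197 and 164 in RBPMS KD1, and 179, 173 and 144 in MBNL KD, and passed no test against D1 with the main scaling.

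**Figure D3:**
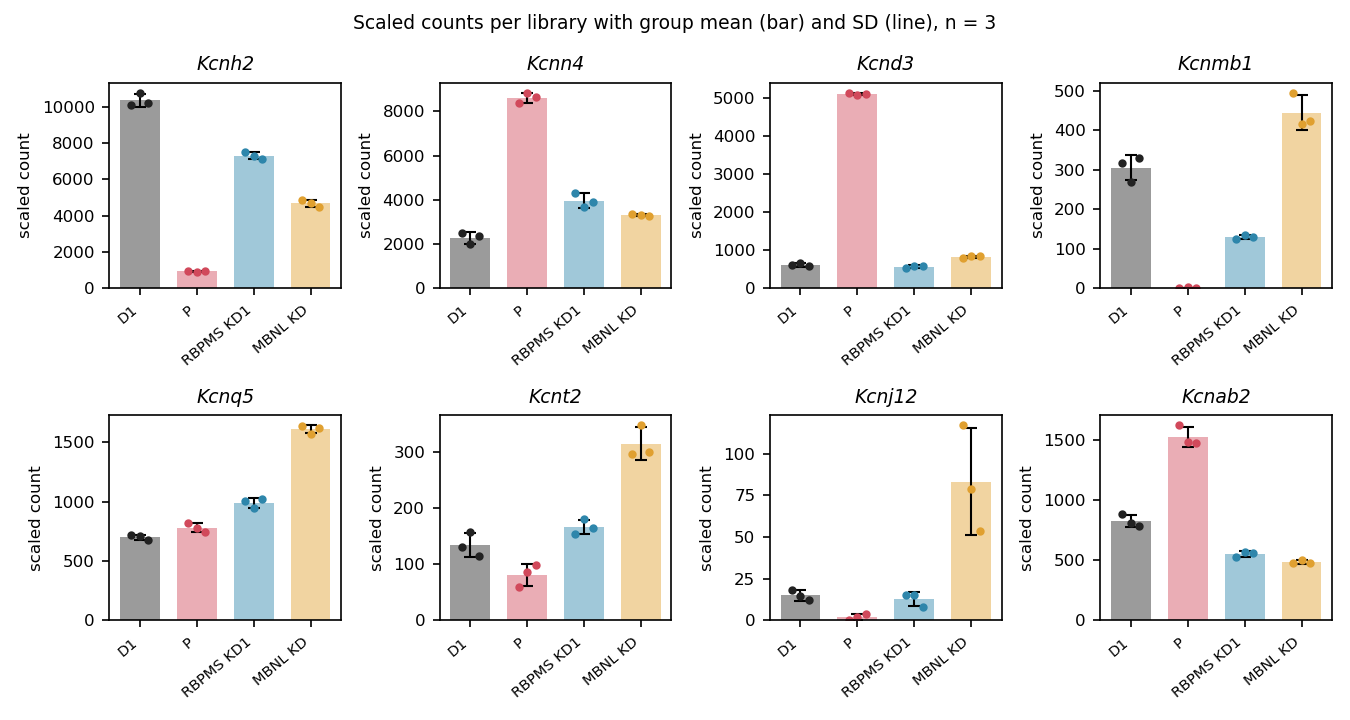
Scaled counts (linear axis from 0) of 8 Kcn genes by group, with bars for the mean of 3 libraries, lines for the SD and points for single libraries. Kcnq5 and Kcnt2 were highest in MBNL KD, Kcnd3 and Kcnn4 in P, and Kcnh2 in D1.

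The P against D1 differences went with differences in marker genes of other cell types, whose part in them was not tested. The summed scaled count of 5 endothelial markers was 66.3 to 72.5 in D1 and 481 to 599 in P, led by Tek (23 to 24 counts in D1, 297 to 368 in P) and Cdh5 (0 in D1, 122 to 138 in P). Vwf rose as well, from 42, 40 and 37 counts in D1 to 85, 113 and 120 in P (1.30, edgeR adjusted p = 6.9e-06), while Kdr had at most 4 counts and Pecam1 at most 10 in those groups. That of 5 neuron markers was 661 to 727 in D1 and 7214 to 7392 in P, nearly all of it Stmn2. Of the other neuron markers, Slc17a7 fell from 273, 196 and 240 counts in D1 to 6, 12 and 12 in P, Syt1 fell (-0.88 ± 0.12, edgeR adjusted p = 8.9e-08), Snap25 was at 0 in P, and Rbfox3 had 2, 0 and 4 counts in D1 and 8, 4 and 10 in P. That of 5 striated muscle markers was 403 to 448 in D1 and 828 to 932 in P, where Tnni3 rose (3.02 ± 0.12, edgeR adjusted p = 2.3e-21), Tnnt2 fell (-0.92 ± 0.14, adjusted p = 2.5e-07) and Ckm did not pass the test (0.27 ± 0.19). The sum of 5 leukocyte markers was 25.8 to 32.7 in D1 and 31.3 to 56.8 in P, with Ptprc at no more than 4 counts. Cd3e had 8, 4 and 2 counts in D1 and 16, 22 and 16 in P and was called higher (1.80 ± 0.52, edgeR adjusted p = 0.0023), while Csf1r did not pass the test. In the knockdowns, the endothelial sum was 162 to 164 in RBPMS KD1 and 82.9 to 125 in MBNL KD, and the striated muscle sum was 221 to 256 and 794 to 899. In RBPMS KD1, Tek (1.32 ± 0.29, edgeR adjusted p = 2.2e-04) and Vwf (1.22 ± 0.22, adjusted p = 2.4e-05) rose, and Tnnt2 (-1.75 ± 0.16, adjusted p = 1.8e-10) and Ckm (-1.86 ± 0.28, adjusted p = 1.3e-06) fell. The striated muscle marker Tnni3 went the other way there and rose (0.74 ± 0.20, edgeR adjusted p = 0.0018). In MBNL KD, Tnnt2 rose (1.60 ± 0.087, edgeR adjusted p = 3.8e-16) and Ckm fell (-1.53 ± 0.26, adjusted p = 6.4e-06). The neuron sums were 855 to 901 and 336 to 437, and the leukocyte sums were 35.5 to 44.5 and 57.6 to 73.1. Slc17a7 rose in RBPMS KD1 (0.85 ± 0.10, edgeR adjusted p = 4.8e-08), where Syt1 and Stmn2 did not pass the test. In MBNL KD, Syt1 fell (-2.84 ± 0.17, edgeR adjusted p = 4.2e-15), Stmn2 fell (-0.95 ± 0.20, adjusted p = 1.3e-04) and Csf1r rose (1.30 ± 0.29, adjusted p = 2.4e-04).

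The knockdowns were compared with each other directly, which leaves out the shared D1 libraries. Of 37 Kcn genes tested in MBNL KD against RBPMS KD1, 8 were called, beside 11.9% of all genes tested, and 22 passed by the adjusted p alone (13 higher and 9 lower), beside 69.5% (35.1% and 34.5%). Of the calls, 6 were higher in MBNL KD (5.88% of all genes) and 2 lower (6.03%), or 4 and 3 after quantile normalization. Higher in MBNL KD were Kcnj12 (2.70 ± 0.33, edgeR adjusted p = 2.4e-08), Kcnmb1 (1.77 ± 0.11, adjusted p = 1.2e-14) and Kcnab1 (1.02 ± 0.15, adjusted p = 6.5e-07), with Kcnk12, Kcnj4 and Kcnma1 at lower counts. Kcnk12 differed by 3.05 ± 0.47 (adjusted p = 1.1e-06), Kcnj4 by 1.72 ± 0.53 (adjusted p = 0.0053) and Kcnma1 by 1.15 ± 0.46 (adjusted p = 0.030). Kcnk12 and Kcnj4 passed the filter on low counts only in comparisons with MBNL KD, so the share describes the members tested and no more. Lower in MBNL KD were Kcnv2 (-1.63 ± 0.23, adjusted p = 3.3e-07) and Kcnh7 (-1.51 ± 0.23, adjusted p = 9.5e-07).

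Within the fold threshold, Kcnt2 (0.92 ± 0.12, edgeR adjusted p = 4.6e-08) and Kcnq5 (0.70 ± 0.056, adjusted p = 1.9e-12) were higher in MBNL KD than in RBPMS KD1. Kcnh2 was lower there (-0.64 ± 0.032, adjusted p = 3.3e-17), and so were Kcnd1 (-0.41 ± 0.069, adjusted p = 5.1e-06) and Kcnn4 (-0.26 ± 0.044, adjusted p = 5.7e-06).

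Of 20 partner genes outside the Kcn symbols, 12 were tested in P against D1, where 3 were called higher and 2 lower, beside 16.4% and 11.2% of all genes tested. Amigo1, a membrane partner of voltage-gated channels, had 80, 90 and 64 counts in D1 and 670, 678 and 619 in P (2.95 ± 0.12, edgeR adjusted p = 2.3e-21), with every P library above every D1 library. The pacemaker channel genes Hcn2 (1.21 ± 0.038, adjusted p = 3.0e-24) and Hcn4 (1.81 ± 0.44, adjusted p = 3.8e-04) were also called higher in P. Akap5, an anchor for kinases at channels (-3.40 ± 0.044, adjusted p = 2.4e-35), and Abcc9, the sulfonylurea receptor of vascular ATP-sensitive channels (-2.17 ± 0.32, adjusted p = 2.7e-07), were called lower. Abcc9 had 58, 78 and 90 counts in D1, 22, 8 and 24 in P, 88, 130 and 136 in RBPMS KD1, and 136, 151 and 136 in MBNL KD, while the pore genes it pairs with, Kcnj8 and Kcnj11, were at or near 0.

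In RBPMS KD1, 11 partner genes were tested and the intracellular cation channel gene Tmem38b was called, as lower (-1.27 ± 0.060, edgeR adjusted p = 8.2e-17), beside 1.62% of all genes. In MBNL KD, 12 were tested and Hcn4 was called, as higher, with 6, 6 and 8 counts in D1 and 53, 50 and 26 in MBNL KD (2.66 ± 0.41, adjusted p = 1.6e-06), beside 6.10% of all genes. Hcn4 did not pass the filter on low counts in RBPMS KD1 against D1, so it was tested only through its level in P or MBNL KD. The Kv4 partners Dpp6 and Dpp10 had at most 8 and 2 counts, the BK γ gene Lrrc26 had at most 4, and Abcc8 had at most 5.

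The remaining 59 Kcn genes had low values in all groups. Of these, 14 were never counted (Kcna1, Kcna3, Kcna5, Kcna10, Kcnb2, Kcnc2, Kcnj3, Kcnj5, Kcnk9, Kcnk10, Kcnk16, Kcnn2, Kcnq3 and Kcnv1), and 8 had at most 3 counts in any library. The other 37 had more than 3 counts in some library, up to 58 in Kcnj10, and those of them called against D1 (Kcna7, Kcnh1, Kcnj4, Kcnk12 and Kcnt1) are given above. A gene without a count may still be present below the limit of about 3 counts per library that these depths allow.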

How the data were processed

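Poly(A) RNA-seq counts of 12 PAC1 libraries were analysed, 3 in each of 4 groups assigned by the labels. The deposited counts per gene are unnormalized: the authors subsampled reads with seqtk, aligned them with STAR 2.7.11b to mRatBN7.2 and counted them with featureCounts. The authors also deposited normalised signal values (noisyR, then quantile normalization), used in an alternative only, and 56 of the 94 Kcn genes were in that table. The submitters' processing notes also list FastQC 0.11.9, MultiQC 1.14, edgeR 3.40.2 and DESeq2 1.38.3. The strand setting and the counting of mates are not given in the sources used here. Even counts up to 20 were 2.09 to 2.37 times as frequent as odd ones, so an alternative used 0.5 of each count.

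Each comparison was fitted on its 6 libraries in R 4.3.3 with edgeR 4.0.16 (filterByExpr, TMM, quasi-likelihood F test, two-sided) over all genes, Benjamini-Hochberg adjustment across those tested, and calls at an adjusted p under 0.05 and a log2 fold change beyond 1. SE was obtained as the absolute fold change on the log2 scale over √F. With no count in 1 group, a bound against 3 counts per library is given, and with 1 to 3 counts a ratio with its exact 95% interval. Intervals and bounds cover counting error only, use the counts as deposited and take each count as a separate fragment. Were mates counted separately, the intervals would be too narrow and the bounds too high. Alternatives used DESeq2 1.42.0, limma 3.58.1, other filters and scalings, and left out each library in turn. The steps were tested on simulated data. Promoters came from RefSeq (GRCr8) tables, and 10 of the 35 genes past the 50-count mean overlap another counted gene there. No lengths were used, so levels are not compared between genes.

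A single Kcn gene past the 50-count mean is included in the counts and is not reported here. The genes named were all other Kcn genes with a mean of at least 50 counts in some group, lower Kcn genes called changed, partner genes called against D1 or joined to a described member, and the siRNA targets. Members and lists (channel classes, partners, smooth muscle, endothelial, leukocyte, neuron and striated muscle markers) were chosen with earlier results of these data known. The study's methods speak of biological replicates in general, and the labels do not say that these libraries came from separate cultures, so p-values measure the spread between these libraries, which may be technical. No pair of libraries agreed within sampling noise.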

Additional observations from a re-analysis of the deposited data

Results flagged for a closer look

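In the direct test of MBNL KD against RBPMS KD1 (edgeR, 3 libraries each), 5 of the 27 tested genes past the 50-count mean were called, beside 11.9% of all genes tested, and 19 of the 27 passed the adjusted p threshold alone, beside 69.5%. All genes tested had no 50-count limit. Kcnj12 passed that limit only through MBNL KD, the group where it was called higher, so its place among the 27 and its call rest on the same values. Kcnmb1 differed by a log2 fold change of 1.77 (SE 0.11, adjusted p = 1.2e-14), being lower than D1 in RBPMS KD1 and higher than D1 in MBNL KD in every library. Kcnj12 differed by 2.70 (SE 0.33, adjusted p = 2.4e-08) and Kcnab1 by 1.02 (SE 0.15, adjusted p = 6.5e-07), both higher in 3 of 3 MBNL KD libraries, though the Kcnab1 call was lost in 6 of 15 other settings (lowest 0.79). Kcnv2 differed by -1.63 (SE 0.23, adjusted p = 3.3e-07) and Kcnh7 by -1.51 (SE 0.23, adjusted p = 9.5e-07), both lower in 3 of 3 MBNL KD libraries. Groups of 3 libraries are too small for the check of single outlying libraries.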

How the results depend on the processing

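No fold change of a described gene that was past the threshold reversed under any alternative. The number of Kcn genes called in P against D1 (23) was 8 when at least 10 counts were required in every library, a filter that removes by construction the genes near 0 in one group, and 17 in place of 32 at adjusted p under 0.05 alone. In RBPMS KD1 the 2 calls became 1 under that filter, 1 with limma on the authors' normalised values (Kcnj2 lost) and 4 in a fit of all 12 libraries. In MBNL KD the 9 calls became 4 with limma (Kcnab1, Kcnj4, Kcnk12, Kcnt2 and Kcnv2 lost), and quantile normalization lost Kcnab1. In P, limma lost Kcnj12, Kcnk4 and Kcnk6 among the described genes it could test, along with Kcna7 and Kcnt1. Between the knockdowns the 8 calls became 4 under the 10-count filter and 4 with limma. Leaving out 1 library gave 24 to 29, 2 to 4, 7 to 9 and 7 to 8 calls in these comparisons, and the 4 in RBPMS KD1, which added Kcna7 and Kcnk12, came without D1 replicate 1 and without RBPMS KD1 replicate 3. The filter on low counts was applied anew to the libraries kept, so the genes tested could differ from the main fit. Of the genes past the 50-count mean that were called, 16 of 20 in P, 1 of 2 in RBPMS KD1, 4 of 7 in MBNL KD and 4 of 5 between knockdowns (all but Kcnab1) kept the call in every setting in which they were tested. Without the filter on low counts 31 Kcn genes were called in P. Between knockdowns Kcng1 (-0.98) was called in 5 of 14 other settings, the block among them. Same-numbered libraries did not deviate together (correlations -0.022 to 0.021), and adding the replicate number to the model (replicate block) called 23, 2, 9 and 9. Other causes were not tested. Low counts limit the genes under 50.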
